A study of Mus musculus with 9 samples.

Results

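Weakly open promoters of a mouse blood progenitor line were taken from a promoter table made by ATAC-seq, a method in which Tn5 transposase inserts adapters into accessible DNA. They were chosen by the control value alone: a window was kept where its log2 concentration, the log2 of the mean normalized reads over a group, lay below 8 in the control cells, which is 256 normalized reads. After 3 repeated rows were dropped, 649 of 10271 promoter windows met this rule (6.32%), and they belonged to 642 genes. The cells were HPC7, a hematopoietic progenitor line of mouse kept in stem cell factor, and all groups had been transduced with a retroviral vector named MIG. In the control group (EV) the vector was empty, and in the other group it encoded FLAG-tagged wildtype Snai1. Each group had 3 libraries of 100000 cells, and 3 libraries of a mutant named mut5Snai1 were not analysed here. The authors' deposited table gives 1 value per group and no value per library, so no standard deviation can be attached. The depth of each library is unknown here. Nothing in the labels says whether the libraries of a group were separate transductions. The authors' p-values may therefore reflect only technical spread between libraries.

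Promoters differ in how open they stand before any signal arrives. Those rich in CG dinucleotides (CpG islands) are usually kept free of nucleosomes in most cell types and serve broadly expressed genes, whereas CG-poor promoters often serve tissue-restricted genes and open where their own activators are present. Snai1 is a zinc finger repressor known for silencing epithelial genes, and it binds E-boxes with the letters CAGGTG. Because the cells were measured in bulk, openness in a small share of cells and slight openness in all cells cannot be told apart.

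Windows at progenitor regulators are given to show where such genes stood. None of the 16 windows at progenitor genes such as Kit, Gata2, Runx1 and Spi1 was weakly open. Their EV values ran from 9.22 at Fli1 to 12.22 at Lyl1. The 2 fibroblast marker windows, of Fap and Pdgfrb, were at 9.15 and 10.14, and the epithelial list had 0 of 16 windows below 8. Since these lists also had none below 8, the count does not check the cell type named by the labels. Windows of markers from other blood lineages were found among the weakly open ones and are described with their genes below.

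Promoters that show the range of sequence among the weakly open windows are printed first. Each is the 250 bases before the RefSeq start (GRCm38.p6, the coordinates of mm10), read 5′ to 3′ on the gene's strand, with every CG dinucleotide in capitals. P2ry1, an ADP receptor gene of platelets, and Mtmr10, a myotubularin-family gene, were higher in Snai1. Rhou, a small GTPase gene, and Gadd45a, a growth arrest gene, were lower. Clec4a2, a C-type lectin receptor gene of myeloid cells, and Ppbp, a platelet chemokine gene, stand for CG-poor promoters that were higher in Snai1.
P2ry1 (chr3:61002535-61002784, plus strand): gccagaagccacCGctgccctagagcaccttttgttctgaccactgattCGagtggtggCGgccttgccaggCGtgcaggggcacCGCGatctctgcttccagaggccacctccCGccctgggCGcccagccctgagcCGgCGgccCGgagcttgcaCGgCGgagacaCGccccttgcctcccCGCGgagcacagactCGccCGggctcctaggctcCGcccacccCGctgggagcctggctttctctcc
Mtmr10 (chr7:64287420-64287669, plus strand): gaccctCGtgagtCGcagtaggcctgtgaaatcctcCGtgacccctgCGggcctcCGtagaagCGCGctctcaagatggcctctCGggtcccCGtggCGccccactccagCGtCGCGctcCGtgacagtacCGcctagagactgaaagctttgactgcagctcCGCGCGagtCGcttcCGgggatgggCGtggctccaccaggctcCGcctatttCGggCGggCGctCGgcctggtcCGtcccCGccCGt
Rhou (chr8:123653679-123653928, plus strand): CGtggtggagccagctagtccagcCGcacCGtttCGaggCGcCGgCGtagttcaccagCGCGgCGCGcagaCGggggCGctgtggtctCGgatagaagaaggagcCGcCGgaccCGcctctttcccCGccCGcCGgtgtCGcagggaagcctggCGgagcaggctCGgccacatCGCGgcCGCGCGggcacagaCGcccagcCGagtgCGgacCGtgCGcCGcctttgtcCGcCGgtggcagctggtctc
Gadd45a (chr6:67037408-67037657, minus strand): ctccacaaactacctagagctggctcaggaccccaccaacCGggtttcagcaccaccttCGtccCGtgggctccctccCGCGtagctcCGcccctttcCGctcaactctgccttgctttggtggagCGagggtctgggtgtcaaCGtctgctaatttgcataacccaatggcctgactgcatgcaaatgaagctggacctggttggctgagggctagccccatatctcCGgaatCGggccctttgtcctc
Clec4a2 (chr6:123122440-123122689, plus strand): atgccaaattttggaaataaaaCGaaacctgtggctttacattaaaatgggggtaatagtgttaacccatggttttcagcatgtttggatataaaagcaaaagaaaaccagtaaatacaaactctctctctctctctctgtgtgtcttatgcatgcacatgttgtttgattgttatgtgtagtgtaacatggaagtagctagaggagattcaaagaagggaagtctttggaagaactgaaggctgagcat
Ppbp (chr5:90768268-90768517, plus strand): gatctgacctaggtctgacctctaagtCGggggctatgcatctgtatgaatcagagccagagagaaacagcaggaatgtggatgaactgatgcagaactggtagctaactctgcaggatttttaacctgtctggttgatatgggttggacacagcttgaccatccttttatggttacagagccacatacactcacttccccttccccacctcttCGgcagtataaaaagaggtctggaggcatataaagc
These stretches hold 20 CG in P2ry1, 29 in Mtmr10 and 36 in Rhou, against 11 in Gadd45a, 2 in Ppbp and 1 in Clec4a2. So CG-rich promoters stood on either side, in the windows that gained and in those that lost accessibility.

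A RefSeq promoter of 300 bases (250 before the start and 50 after it) was at hand for 389 of the 649 weakly open windows (59.9%), those whose start coincides with an entry. This is under 80%, so a check over all 649 is void, and the values describe the 389 only. Their median CpG ratio (observed CG over the number that the C and G content would give) was 0.327, against 0.809 in 6252 windows at 8 or more in EV and 0.384 in all 32851 RefSeq promoters. A ratio under 0.5 was found in 65.0% of them and in 12.4% of the more open windows. The median GC content was 54.7% against 61.7%. The ratio climbed with openness above the threshold, from 0.554 at EV values of 8 to below 9 to 0.732 at 9 to below 10 and 0.824 at 10 or more. Among the weakly open windows, however, the least open were not the poorest in CG: the median was 0.48 in 35 windows below 6 in EV, 0.293 in 169 windows from 6 to below 7 and 0.329 in 185 windows from 7 to below 8. The windows that changed most were also richer in CG. The median was 0.683 in 39 windows that were higher in Snai1 by 1 or more and 0.59 in 25 that were lower by 1 or more, against 0.297 in 325 that changed by less than 1.

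**Figure D1:**
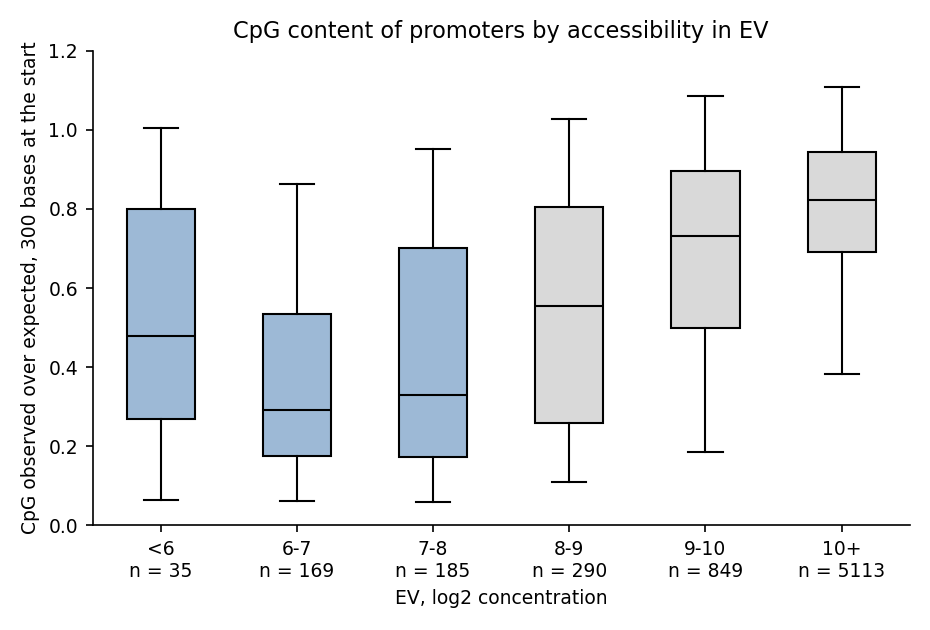
Promoter CpG ratio (vertical, 300 bases at the start) in bands of log2 concentration in EV (horizontal), with weakly open bands in blue; boxes span the quartiles with the median as a line, and whiskers run from percentile 5 to 95. The ratio is lowest, with medians of 0.293 and 0.329, at EV values from 6 to below 8.

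Some short motifs are printed for windows that reached 8 in Snai1, to show the letters around them. The 300 bases were searched on both strands for the E-box letters CAGGTG (read as CACCTG from the other strand), and on the gene's own strand only for the TATA box letters TATAAA. The E-box and the TATA letters differ, so a match of one is never a match of the other. Stretches of 26 bases are given 5′ to 3′ on the gene's strand with the motif in capitals, E-boxes first.
Asb13 (chr13:3633950-3633975, plus strand): tggggacgctCAGGTGgcacgcggcg
Itm2a (chrX:107403531-107403556, minus strand): gcctggggtgCAGGTGaggcatgtct
Ccrl2 (chr9:111057602-111057627, minus strand): cctcacagtcCACCTGaccgtgtccc
Cela1 (chr15:100688014-100688039, minus strand): actttcatgtCACCTGcgcttttccc
Ppbp (chr5:90768478-90768503, plus strand): tcttcggcagTATAAAaagaggtctg
Cela1 (chr15:100687932-100687957, minus strand): ataagaggcgTATAAAgagggctcgg
Clec4a2 (chr6:123122519-123122544, plus strand): catgtttggaTATAAAagcaaaagaa
An E-box was found in 79 of the 389 weakly open promoters (20.3%), in 15.9% of all windows with a sequence and in 20.2% of all RefSeq promoters. It was present in 5 of the 48 promoters that reached 8 in Snai1 (10.4%). Among those called lower in Snai1 it was in 9 of 53 (17.0%) and among those called higher in 10 of 67 (14.9%). Among those not called it was in 60 of 269 (22.3%). TATAAA was found in 35 (9%), against 3.88% of all windows with a sequence and 8.32% of all RefSeq promoters. Counted anywhere in the 300 bases, it stood in 10 of the 48 that reached 8 (20.8%). A TATAAA that began 20 to 40 bases before the start was rarer, in 9 of the 389 (2.31%) and in 0.949% of all windows with a sequence. Of the 48 that reached 8, only 2 had a TATAAA at that distance (4.17%). In Ppbp it began 30 bases and in Cela1, a pancreatic-type elastase gene, 27 bases before the start. The TATAAA printed for Clec4a2 began 161 bases before the start, outside that range. A match of letters is a description of these windows and not a bound site.

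The weakly open windows spanned a wide range below the threshold. In EV the lowest was 2.65, the median 6.97 and the highest 7.99, and the middle 50% lay between 6.44 and 7.49. At their median a window held 125 normalized reads, against 1758 at the median of all windows (10.78). The 3 windows just inside the threshold were all at 7.99: those of Tmem79, Nmi and H3c15, with Snai1 values of 8.10, 8.36 and 8.47. Just outside it stood Cd80 at 8.0, Zfp459 at 8.01 and Tns2 at 8.02, with Snai1 values of 6.61, 7.97 and 7.77. The threshold therefore cuts a continuous range of values.

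**Figure D2:**
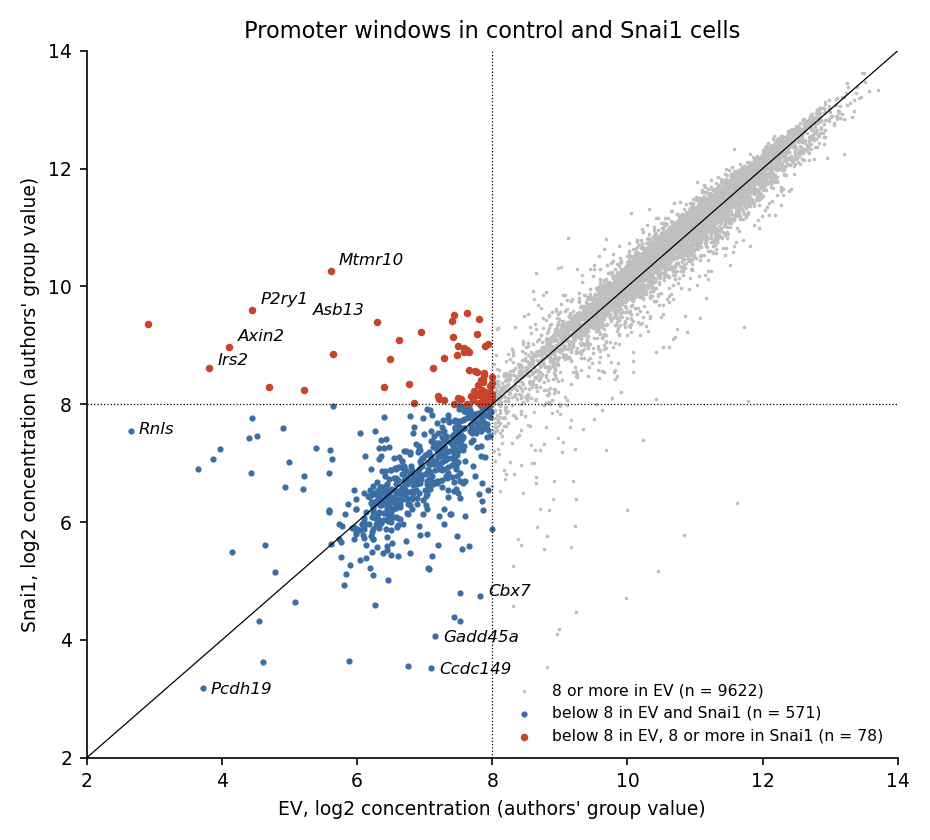
Log2 concentration of each promoter window in EV (horizontal) and Snai1 (vertical), as the authors' group values. The 649 windows left of 8 are the weakly open ones, and the 78 of them at 8 or above on the vertical axis reach 10.27 at most.

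Where these windows lie was not part of the rule. Within 1000 bp of an annotated RefSeq start lay 597 (92.0%, against 97.1% of all windows), and 473 matched one exactly (72.9% against 73.3%). A further 47 lay inside a gene away from any annotated start (7.24% against 2.68%), and 5 had no gene. The longer windows, of plus-strand genes, numbered 331, and the shorter ones, of minus-strand genes, numbered 318. Only 30 overlapped another window (4.62%), against 18.8% of all windows. Protein-coding genes held 571 of the 649, which is 5.81% of the 9828 protein-coding windows in the table.

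Short non-coding genes and pseudogenes were frequent. Of 41 windows at snoRNA genes, which guide the modification of ribosomal RNA and are mostly processed from introns of host genes, 20 were weakly open (48.8%), and none of them reached 8 in Snai1. Of 24 windows at pseudogenes that RefSeq does not label as transcribed, 20 were weakly open (83.3%), and 1, Gm12188, reached 8 (7.88 to 8.14). Transcribed pseudogenes gave 7 of 28 (25%) and microRNA genes 4 of 11 (36.4%), namely Mir1967, Mir3101, Mir3064 and Mir25. For lncRNA genes the share was 21 of 302 (6.95%). Reads at pseudogenes and in families of near-identical copies can be shared between copies, so those values are uncertain. This applies here to H2-K1, the Klra, Pilrb, Cd200r and Ifi200 genes, Serpina3f, Rnaset2a, Tgtp2, Gbp7 and the clustered protocadherins as well.

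Gene lists for blood lineages and surface proteins show which windows of the table stood weakly open in the progenitors. The table holds 10271 windows against 32851 RefSeq promoters. Promoters missing from it are not counted, so a share does not say how open a whole class of genes stands. Of 22 lymphoid windows, 8 were weakly open (36.4%), and of 44 myeloid effector and differentiation windows, 11 were (25%). The share was 20 of 69 for matrix, integrin and adhesion genes (29.0%), 16 of 70 for G protein-coupled receptors (22.9%) and 6 of 30 for megakaryocyte, platelet and erythroid genes (20.0%). Neuronal and synaptic genes gave 5 of 25 (20.0%) and secreted signals with their feedback inhibitors 14 of 79 (17.7%). At the other end were Zfp zinc finger genes with 8 of 327 (2.45%), ribosomal protein genes with 1 of 79 (Rpl3l, the muscle form of a ribosomal protein) and proteasome, polymerase and spliceosome genes with 1 of 88 (Psmc1). None of 30 germline windows was below 8, the lowest being at 8.17.

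**Figure D3:**
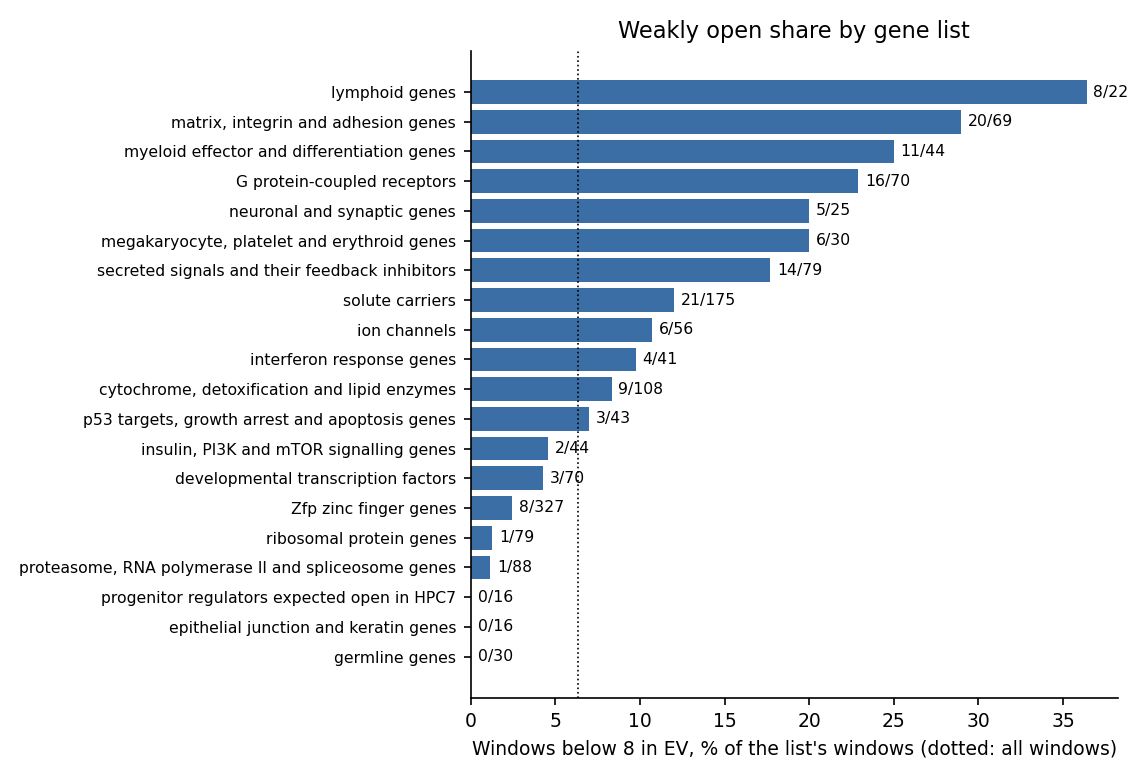
Percent of each list's promoter windows that lay below 8 in EV, with the numbers of windows beside the bars. The dotted line is the share over all windows, and the fibroblast list of 2 windows and the 6 lists of receptor families are not drawn. Lymphoid genes have the largest share of the lists drawn, 36.4%, against 6.32% over all windows.

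The comparison of Snai1 with EV asked how promoter accessibility differs when the progenitors carry Snai1. It uses the EV values that chose the windows. Choosing on EV alone favours rises, since a window that happened to read low in EV is kept and one that happened to read low in Snai1 is not, so the counts that follow are a description and support nothing. In the authors' deposited table, 193 of the 649 weakly open windows passed FDR 0.05 (29.7%), against 29.9% of all windows. Of these, 105 were higher in Snai1 (16.2%, against 19.6% of all windows) and 88 lower (13.6%, against 10.3%). At FDR 0.05 with a change of at least 1, the authors' deposited table has 56 higher (8.63%, against 0.701% of all windows) and 38 lower (5.86%, against 1.32%). The median change was -0.05, with the middle 50% from -0.32 to 0.25, where the median of all windows was 0.08. Values above 0 numbered 292, values below 0 numbered 351 and 6 were at 0.

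Of the 649, 78 reached 8 or more in Snai1 (12%) and 571 stayed below. Many of the 78 moved little: 52 of them began at 7.5 or above, 32 changed by less than 0.5, and 21 missed FDR 0.05 in the authors' deposited table. Their median change was 0.62. The change was 1 to below 2 in 17 and at least 2 in 14. In Snai1, 13 stood at 9 or more, and none reached the median of all windows (10.84). Chosen the other way round, by a Snai1 value below 8, there were 684 windows, of which 113 were at 8 or more in EV. Of these 113, 60 were lower in Snai1 by at least 1 and 27 by at least 2. So more windows crossed the threshold downwards than upwards between the groups, but more also stood just above it. Of 321 windows from 7 to below 8 in EV, 63 reached 8 in Snai1. Of 501 from 8 to below 9 in EV, 411 stayed at 8 or more. The 2 counts are therefore not rates, and no direction is read from them.

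The windows that gained most had named genes of many kinds. Each change below has the standard error implied by the authors' p-value (the change over the normal deviate that matches p), called the implied SE. In the authors' deposited table, P2ry1 went from 4.45 to 9.60 (change 5.15, implied SE 0.37) and Irs2, which encodes an adaptor of the insulin receptor, from 3.81 to 8.62 (change 4.81, implied SE 0.27). The Mtmr10 window went from 5.61 to 10.27 (change 4.66, implied SE 0.34) and ended as the most open of the 78. Axin2, a feedback inhibitor of Wnt signalling, went from 4.11 to 8.98 (change 4.87, implied SE 0.23). Its window sat exactly at a later annotated start, 2521 bp downstream of the gene's 5' boundary, and so did that of Sec24d, a coat protein gene of vesicle export, 2695 bp downstream (4.70 to 8.30).

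Other windows that rose by 2 or more belonged to metabolic, regulatory and immune genes. Man1c1, a Golgi mannosidase gene, went from 5.64 to 8.86 and Asb13, which encodes a substrate adaptor of a ubiquitin ligase, from 6.29 to 9.39. The X-linked genes Spin4, of the spindlin family of histone readers, and Zfp711, a zinc finger gene, went from 5.21 to 8.24 and from 6.62 to 9.09. Slc7a11, the cystine and glutamate exchanger, went from 6.49 to 8.77. Cd300a, an inhibitory receptor of myeloid and mast cells, went from 6.94 to 9.22, Tlcd2, a membrane lipid gene, from 7.44 to 9.52, and H2-K1, an MHC class I gene, from 7.41 to 9.42. All 8 passed in the authors' deposited table, with FDR values from 1.95e-88 at Asb13 to 1.01e-34 at Cd300a.

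A further 6 named windows that reached 8 rose by less than 2. Cebpb, a transcription factor of myeloid differentiation, went from 6.40 to 8.29 and Clec4a2 from 6.77 to 8.35. Papss2, which makes the sulfate donor of the cell, went from 7.63 to 9.55. The linker histone gene H1f10 went from 7.42 to 9.14 and overlaps the window of the lncRNA gene Gm5577 (7.80 to 9.45), so the same reads may count in both. The divergent genes Lacc1, a macrophage metabolism gene, and Ccdc122 likewise share a promoter region and went from 7.28 to 8.79 and from 7.49 to 8.99. All 6 passed FDR 0.05 in the authors' deposited table, as did Gm5577.

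**Figure D4:**
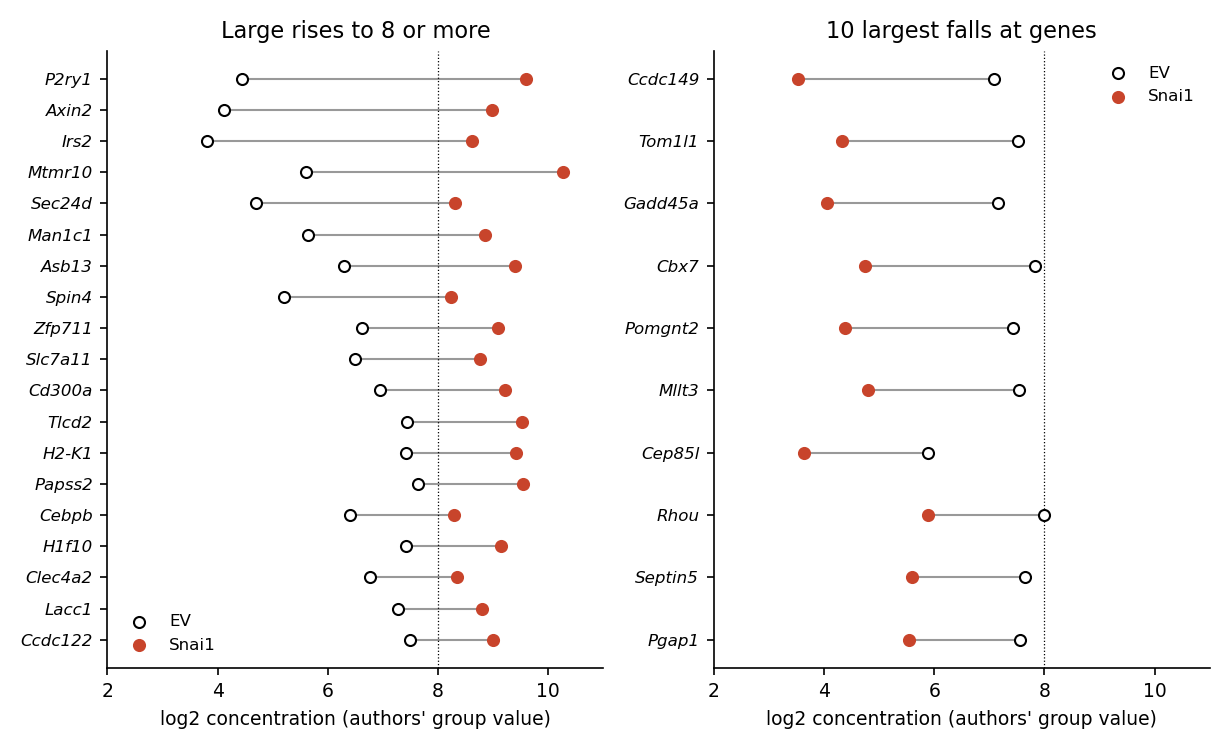
Log2 concentration in EV and Snai1 of windows with large rises to 8 or more (left) and the largest falls at genes (right), as the authors' group values joined by a line. Rises begin between 3.81 and 7.63 in EV, and falls end between 3.53 and 5.88 in Snai1.

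At the bottom of the range, rises and the absence of a call stood side by side. The 21 windows below 5 in EV had a median change of 3.02. Of them 16 changed by at least 1 upwards, but only 5 reached 8. How windows entered the table was not examined here. A window this low in EV may be in it through its Snai1 value, so these rises are a description only. Rnls, named for the oxidase renalase but annotated by RefSeq as a transcribed pseudogene in this build, had the lowest value in EV and went from 2.65 to 7.55 (implied SE 0.38). Rbms1, an RNA-binding protein gene, went from 3.65 to 6.90 with the widest implied SE of these windows, 0.65, and Lancl3 from 3.87 to 7.08. The Rbms1 window lay at a later annotated start, 82442 bp inside the gene. Tfap2a, a developmental transcription factor gene, went from 3.97 to 7.24 at a window 7781 bp inside the gene. Wls, which carries Wnt proteins to the cell surface, went from 4.40 to 7.42, and Dusp8, a MAP kinase phosphatase gene, from 4.15 to 5.50 (FDR 0.00329 in the authors' deposited table). Pcdh19, a protocadherin gene, stood apart from these at 3.72 and 3.18 (FDR 0.509 in the authors' deposited table). Tgtp2, an interferon-induced GTPase gene, was at 4.55 and 4.32, and Sobp at 4.61 and 3.63; neither passed.

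Precision fell with the level. The median implied SE was 0.29 in windows below 5 in EV, 0.27 from 5 to below 6, 0.23 from 6 to below 7 and 0.17 from 7 to below 8, against 0.08 in windows at 9 or more. The median change was 0.28 in the 36 windows from 5 to below 6, -0.09 in the 271 from 6 to below 7 and -0.06 in the 321 from 7 to below 8. Of the 78 that reached 8, 63 came from this top band. All 25 windows of the table that rose by at least 2 were weakly open in EV. Of the 41 that were lower by at least 2, 11 were. Chosen by a Snai1 value below 8 this turned round, with 38 of those 41 falls and 11 of the 25 rises. The contrast therefore follows the group used for the choice, and nothing is read from it. Among windows at 8 or more in EV the largest rise was 1.71.

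**Figure D5:**
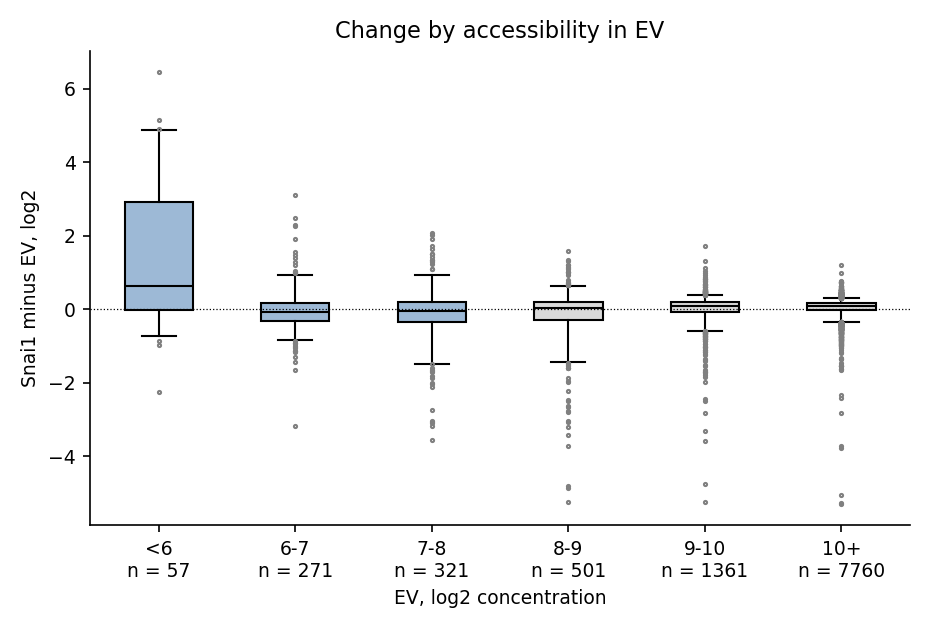
Change from EV to Snai1 in log2 (vertical) in bands of log2 concentration in EV (horizontal), with weakly open bands in blue; boxes span the quartiles, whiskers run from percentile 5 to 95 and points are windows beyond them. The 57 windows below 6 in EV have the widest spread of changes of the 6 bands, and the medians are -0.09 and -0.06 in the other blue bands.

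Of the 10 largest falls at genes, 8 had a promoter sequence at hand, with a CpG ratio from 0.272 at Mllt3 to 1.07 at Rhou. Ccdc149, a coiled-coil protein gene, went from 7.09 to 3.53 in the authors' deposited table (change -3.57, implied SE 0.32, FDR 6.85e-27). Tom1l1, an adaptor gene of endosomal sorting, went from 7.52 to 4.33 with a wide implied SE of 0.73. Gadd45a went from 7.15 to 4.06 (change -3.10), and Cbx7, a Polycomb group gene, from 7.82 to 4.75 (change -3.07). Pomgnt2, a glycosyltransferase gene, went from 7.43 to 4.39, and Mllt3, a transcription elongation gene of stem cells, from 7.53 to 4.79. The Mllt3 and Cbx7 windows lay at later annotated starts, 227084 and 38497 bp inside the gene. Cep85l, a centrosomal gene, went from 5.88 to 3.64, Rhou from 7.99 to 5.88, Septin5, a septin gene, from 7.65 to 5.6 and Pgap1, an enzyme gene of GPI anchors, from 7.55 to 5.54. All 10 were called lower in the authors' deposited table. A window of chromosome 16 with no gene (chr16:45204100-45206100), picked out after its values were seen, went from 6.75 to 3.56.

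Myeloid genes among the weakly open windows moved both ways. The called counts of this and the other lists stand beside 19.6% of all windows called higher and 10.3% called lower; they are small, come from the contrast that chose the windows, and nothing is read from them. Of the 11, the authors' deposited table called 4 higher and 1 lower, with a median change of 0.01. Ms4a3, a marker of granulocyte and monocyte progenitors, rose from 4.93 to 6.59, Cd14, a co-receptor for bacterial lipopolysaccharide, from 6.36 to 7.39 and Itgam, an integrin of myeloid cells, from 7.18 to 7.69. Trem1, an activating receptor of neutrophils and monocytes, fell from 7.6 to 6.70. The monocyte growth factor receptor gene Csf1r was at 7.19 and 7.23 and the lysozyme gene Lyz2 at 7.77 and 7.56, and neither passed.

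Among the 8 lymphoid windows, Cd28, the T cell costimulatory receptor, was called higher (6.43 to 7.41), and by the authors' deposited table none was called lower and 7 did not pass. Ccr7, a homing receptor of lymphocytes and dendritic cells, was at 7.91 and 8.04 (FDR 0.536 in the authors' deposited table) and crossed the threshold by this difference. The median over the 8 was 0.06. Zap70, a kinase of T cell receptor signalling, was at 6.24 and 6.47 and Cd79b, of the B cell receptor, at 6.59 and 6.40. Of the 6 megakaryocyte, platelet and erythroid windows, P2ry1 and Ppbp (7.83 to 8.42) were called higher, and Vwf, the von Willebrand factor gene, was at 6.33 and 6.18.

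Receptor families that sit in gene clusters were looked at after their values were seen. Of 12 C-type lectin receptor windows, 8 were weakly open: Clec4a2, Clec4a1 (7.03 to 7.92) and Clec2i (6.55 to 7.09) were called higher in the authors' deposited table and 5 did not pass. Of 16 windows of the CD300, CD200R, Trem and Pilr families, 9 were weakly open. Cd300a rose, and Trem1, Cd200r4 (7.34 to 6.43) and Cd200r2 (7.02 to 6.29) fell; both Cd200r genes lie on chromosome 16. Among 8 of 12 CC chemokine and receptor windows, Ccl3 (6.97 to 7.77) and Ccrl2 (7.79 to 8.33) rose and 6 did not pass. The 4 weakly open windows of the 6 Ifi200 genes, which encode interferon-induced DNA sensors, were none of them called. Their median change was -0.36, and they lie together on chromosome 1, where all windows had a median of -0.15. The TNF receptor Tnfrsf22 rose from 7.65 to 8.89, as 1 of 6 weakly open windows among 13.

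The lists of secreted signals with their feedback inhibitors and of G protein-coupled receptors, which hold blood genes too, had calls in both directions. Of the 14 windows of signals and inhibitors, the authors' deposited table called 5 higher and 2 lower, with a median change of 0.04. Besides the feedback inhibitors Axin2 and Dusp8, the growth factor gene Fgf10 rose from 4.90 to 7.59 and Dkk1, a Wnt antagonist, from 6.79 to 7.80. Efna3, an ephrin, fell from 7.6 to 6.10 and Gdf15, a stress-induced cytokine, from 7.29 to 6.22. Of the 16 G protein-coupled receptor windows, 5 were higher and 2 lower, with a median of -0.05. Neighbouring lymphocyte receptor genes on chromosome X, Gpr174 (6.40 to 7.25) and P2ry10b (6.32 to 7.26), rose. So did Itm2a (7.74 to 8.56) in the same region, and the more open window of P2ry10 there went from 8.72 to 9.18.

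Adhesion and transport genes had calls in both directions. Of the 20 matrix, integrin and adhesion windows, the authors' deposited table called 3 higher and 3 lower, with a median of -0.08. The laminin chain Lamb3 fell from 7.04 to 5.80 and the matrix protease Mmp14 from 7.47 to 6.57, and the integrin Itgad rose from 7.5 to 8.11. The clustered protocadherins Pcdhb22 (7.22 to 6.10) and Pcdhb16 (6.12 to 7.13) moved in opposite directions. Of the 21 solute carrier windows, which include the pseudogene Slc2a4rg-ps that is not a carrier, 2 were higher, Slc7a11 and Slc37a3 (5.63 to 7.07). The monocarboxylate carrier Slc16a9 (7.74 to 6.79) and the copper transporter Slc31a2 (7.72 to 6.96) were lower, and 17 did not pass. Over all weakly open windows 70.3% had no call, and 14 of the 20 adhesion windows had none.

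The remaining lists had few weakly open windows. Of 9 cytochrome, detoxification and lipid windows, 3 were higher in the authors' deposited table (the transcribed pseudogene Rnls, Acot6 at 6.40 to 7.78 and the drug efflux pump Abcg2 at 7.34 to 7.82) and 2 lower (Gstm2 at 6.51 to 5.45 and Cyp4f39 at 6.74 to 6.16). Of 8 Zfp windows, Zfp711 and Zfp109 (6.83 to 7.52) were higher. Gbp7, an interferon-induced GTPase gene, was lower (7.11 to 5.43) as 1 of 4 interferon windows. Of 3 p53-related windows, Gadd45a was lower and Eda2r, a receptor gene and p53 target, higher (7.59 to 8.95). Both weakly open windows of the insulin and PI3K list, Irs2 and Mtmr10, were higher. None of the 6 ion channel and 5 neuronal windows was called.

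The weakly open windows were spread over 20 chromosomes, with a share from 4.12% of windows on chromosome 12 to 9.0% on chromosome 1. The counts by chromosome are given beside the 19.6% of all windows called higher and 10.3% called lower, and differences between chromosomes were not tested. On chromosome X, the authors' deposited table called 10 of 24 higher and 0 lower (median 0.14, all windows of it 0.09), and 7 reached 8. On chromosome 16, 0 of 15 were higher and 7 lower, with a median of -0.57 where all windows of that chromosome had -0.35. On chromosome 1, 2 of 53 were higher and 10 lower (median -0.25, all windows -0.15). The part that such chromosome-wide shifts have in each fall was not tested. Without chromosomes 1, 4, 5, 12 and 16 the median change of the weakly open windows was 0.01 in place of -0.05, and 70 reached 8. For 17 of the 20 largest rises the nearest window that does not overlap changed by less than 0.5, with a median gap of 127 kb. For 9 of the 10 named falls the nearest window likewise changed by less than 0.5, and near Mllt3 the Focad window went from 10.91 to 9.95. Changes this small were common: 64.9% of all windows rose by less than 0.5, before small falls are counted. Nothing is therefore read from these counts of nearest windows.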

How the data were processed

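ATAC-seq libraries of EV and Snai1 HPC7 cells, 3 per group, were compared by the authors, and the deposited table of that comparison over promoter windows was analysed. The tools named per the submitters' processing notes are fastp, Bowtie2, Picard and DiffBind, on mm10. Not given in the sources used here are versions, the scaling, any shift for the Tn5 cut and reads per library. Per the file headers, the deposited values are the authors' log2 concentrations of each group and over both, a log2 fold, a p-value and an FDR. The sign of the deposited fold, which is EV minus Snai1 (within 0.01 of the group values' difference), was turned. There were 0 columns of values per sample, so no test was run here, and calls are the authors' FDR at 0.05.

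Of 10274 rows, 3 repeats were dropped. The windows run from 1000 bp before a start to 1000 bp after it on the plus strand, and to 100 bp after it on the minus strand. It took the gene of the nearest RefSeq start (GRCm38.p6) of its strand within 1000 bp, alternative starts included, otherwise the gene that spans it. The implied SE and the CpG ratio were tested on simulated data, and the implied SE was set only for changes of at least 0.1. Shorter windows see less sequence after the start. Python 3.11.15, pandas 2.3.3, numpy 2.4.6, scipy 1.17.1 and matplotlib 3.10.9 were used.

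The members and the gene lists were chosen with earlier results of these data known. Named genes were the 20 largest rises to 8 or more (predicted genes last), the 10 lowest in EV, the 10 largest falls at genes, up to 4 per list with the smallest FDR and the 3 windows on each side of the threshold; 1 window that this rule takes is not reported here. Other genes named, the printed sequences and the 6 lists of receptor families were picked after their values were seen. Alternatives were other thresholds, selections, window widths, FDR levels and distances to a start, and leaving out chromosomes with shifted stretches.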

Additional observations from a re-analysis of the deposited data

How the results depend on the processing

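The number of weakly open windows was 491 at a threshold of 7.5 and 854 at 8.5, 651 when chosen on the mean of both groups and 501 per kb of window; it was 331 with the longer plus-strand windows and 318 with the shorter minus-strand windows alone. Those that reached the threshold in Snai1 numbered 58 at 7.5 and 80 at 8.5. There were 67 with Snai1 lowered by the median change of all windows, and 70 without chromosomes 1, 4, 5, 12 and 16. Chosen on Snai1, 113 crossed in the other direction, counted over all chromosomes. The 78 at the threshold of 8 were 32 of the longer and 46 of the shorter windows. At FDR 0.01 the authors' deposited table has 87 higher and 64 lower, and with a change of at least 1, 56 and 38. The median change of -0.05 was -0.12 when chosen on the mean, -0.18 when chosen on Snai1, -0.13 with the median of all windows subtracted and 0.01 without the 5 chromosomes. Its sign therefore depends on those chromosomes; the cause was not tested. No paired analysis was possible because the authors' deposited table gives 1 value per group, and leaving out single libraries could not be done for the same reason. Reads per library are unknown, and low windows had the widest implied SE.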

Other observations

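Some genes had a weakly open window beside a more open one. In 6 genes the other window stood at 8 or more in EV. Gpr146, a G protein-coupled receptor gene, had 7.49 at one annotated start and 11.32 at another, and Fam78a had 6.66 and 9.78. For Slc20a2, a phosphate transporter gene, the values were 6.74 inside the gene and 10.53 at the start, for Ube2j2, a ubiquitin conjugating enzyme gene, 6.72 and 11.09, for Rmnd1 7.36 and 10.94 and for Ino80dos 6.41 and 11.64. In the authors' deposited table the weakly open Gpr146 window was lower in Snai1 (7.02, FDR 0.0267) while its open window was at 11.27 (FDR 0.647); the difference between these was not tested. Serpina3f had overlapping windows that were both weakly open and both lower in Snai1, at 7.07 to 5.2 and 7.05 to 5.23.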
